A study of Mus musculus with 6 samples.

Results

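The ephrin-A ligands and EphA receptors were taken as the rows of the deposited expression table whose symbol was 1 of 10 listed names, 5 ligands (Efna1 to Efna5) and 5 receptors (Epha1, Epha2, Epha3, Epha4 and Epha7). All 10 were found among 19739 genes, and all 10 passed the filter on low values, which left 16394 genes to test. RNA was sequenced from wild-type mouse mammary luminal cells, which line the lumen of the ducts, in 3 libraries given EFNA3 protein at 1 µg/ml and in 3 control libraries at 0 µg/ml. Per the labels' protocols, all cells had been sorted by flow cytometry and grown in medium that held 5% FBS, 10 ng/ml of EGF, 20 ng/ml of FGF2, 4 µg/ml of heparin and 5 µM of Y-27632, a drug that blocks ROCK, a kinase acting downstream of Eph receptors. Serum was withdrawn for 12 hours before the 24 hours with or without the protein. The labels give no strain, age, species of the protein or carrier, and do not say whether replicates came from separate animals or cultures. P-values therefore reflect the spread among these libraries alone, and that spread may be technical.

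Ephrin-A proteins are held on the cell surface by a lipid anchor and bind EphA receptor tyrosine kinases on neighbouring cells, so that ligand and receptor can both signal where cells touch. Most ephrin-A ligands bind several EphA receptors, and EphA4 also binds B-class ephrins. EphA2 is the best-studied member in epithelia, including the mammary gland, where ephrin-A1 is a well-known ligand. The RNA values below show which of these genes were transcribed and do not measure protein or binding.

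The deposited values are on a log2 scale and share 1 distribution across the 6 libraries, with a median of 8.10, so depth is unknown and a change common to every gene would not show. The luminal markers Krt8, Krt18, Krt19, Epcam, Elf5 and Kit were all present, with a summed level of 16.23 to 16.46 in EFNA3 libraries and 16.15 to 16.24 in controls (log2 of the summed linear values). Of 6 basal markers, 5 passed the filter on low values and Myh11 did not. The summed level of the 6 was 16.98 to 17.04 in EFNA3 libraries and 16.89 to 16.98 in controls, above that of the luminal list. Most of this sum came from the keratins Krt14 and Krt5. Oxtr ran from 13.11 to 13.43 in EFNA3 libraries and from 13.41 to 13.47 in controls. That lay above the luminal markers Elf5 and Kit and below Krt8, Krt18, Krt19 and Epcam (deposited log2, not divided by length). Trp63 ran from 11.72 to 11.76 in EFNA3 libraries and from 11.73 to 11.82 in controls, below Kit. Acta2 was lower still, at 7.71 to 7.93 in EFNA3 libraries and 7.66 to 7.88 in controls. Summed levels were 10.59 to 10.73 in EFNA3 libraries and 10.71 to 10.78 in controls for 4 fibroblast markers, and 8.22 to 8.37 in EFNA3 libraries and 8.24 to 8.44 in controls for 3 endothelial markers, of which Cdh5 and Kdr lay below the filter. The 2 neural-list genes in the table, of 3 listed, summed to 11.50 to 11.65 in EFNA3 libraries and 11.55 to 11.76 in controls. Nearly all of this came from Sox10, while Tubb3 stood at 3.05 to 3.98 in EFNA3 libraries and 2.12 to 3.62 in controls. That sum thus describes Sox10 and is no measure of neural cells. The 2 adipocyte markers, of 3 listed, summed to 3.49 to 4.61 in EFNA3 libraries and 4.30 to 4.61 in controls. EFNA3 replicate 1 stood apart by gene length: across 15972 genes, which are not independent replicates, its deviation from the mean of the 6 libraries had a Spearman correlation of -0.46 with exon length, against -0.03 to 0.33 in the other 5 libraries. Where that library moved a difference by much, the value without it is also given.

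The first question was how much of each ligand and receptor the untreated cells expressed. To compare genes, each deposited value was divided by the summed exon length of the gene in kilobases, and the result is given as log2 per kb. The sources used do not say whether the deposited values already took length into account. Results with no length are therefore also given below. By this measure the ephrin-A ligand Efna1 stood highest of the 10 genes in controls, at 10.95 ± 0.07 log2 per kb (SD, n = 3), above 97.0% of the genes tested. Among the receptors Epha1 and Epha2 led, and Epha3 and Efna2 were at the bottom of the 10.

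The ligands kept 1 order in each of the 6 libraries: Efna1, Efna5, Efna4, Efna3 and Efna2. In controls Efna5, best known as an axon guidance cue, stood at 9.59 ± 0.04 log2 per kb (SD, n = 3). Efna4 followed at 9.01 ± 0.06 log2 per kb (SD, n = 3). The gene of the added protein itself, Efna3, stood at 7.72 ± 0.19 log2 per kb (SD, n = 3), above 60.8% of genes tested. The cells thus carried transcripts of Efna3 and of 4 other A-class ligands without any added protein. Efna2 was the lowest ligand at 5.86 ± 0.34 log2 per kb (SD, n = 3), with the widest spread among controls of the 10 genes. Each neighbouring pair of ligands was separated in 3 of 3 control libraries with no overlap of ranges.

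The receptors also kept 1 order in each library: Epha1, Epha2, Epha4, Epha7 and Epha3. Epha1, a receptor of ephrin-A1, stood at 8.87 ± 0.01 log2 per kb in controls (SD, n = 3). Epha2 followed at 8.23 ± 0.07 log2 per kb and Epha4 at 7.55 ± 0.05 log2 per kb (SD, n = 3 each). These levels put Epha1 above 80.6% of genes tested and Epha2 above 70.2%. Epha7, a receptor known from patterning of the nervous system, stood at 7.17 ± 0.08 log2 per kb, and Epha3, a receptor with roles in heart and brain development, at 5.92 ± 0.19 log2 per kb (SD, n = 3 each). Over ligands and receptors together, 2 neighbouring pairs overlapped in their control ranges. Efna3 exceeded Epha4 by 0.17 ± 0.19 log2 per kb (SD, n = 3), in 3 of 3 control libraries. Epha3 exceeded Efna2 by 0.07 ± 0.50 log2 per kb (SD, n = 3), in 1 of 3 control libraries, so the order of this pair was not resolved. Epha8, an EphA gene of the table outside the listed 10, ran from 0.47 to 2.46 in EFNA3 libraries and from 1.39 to 1.77 in controls (deposited log2) and did not pass the filter. Epha5, Epha6 and Epha10 were not analysed here.

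**Figure D1:**
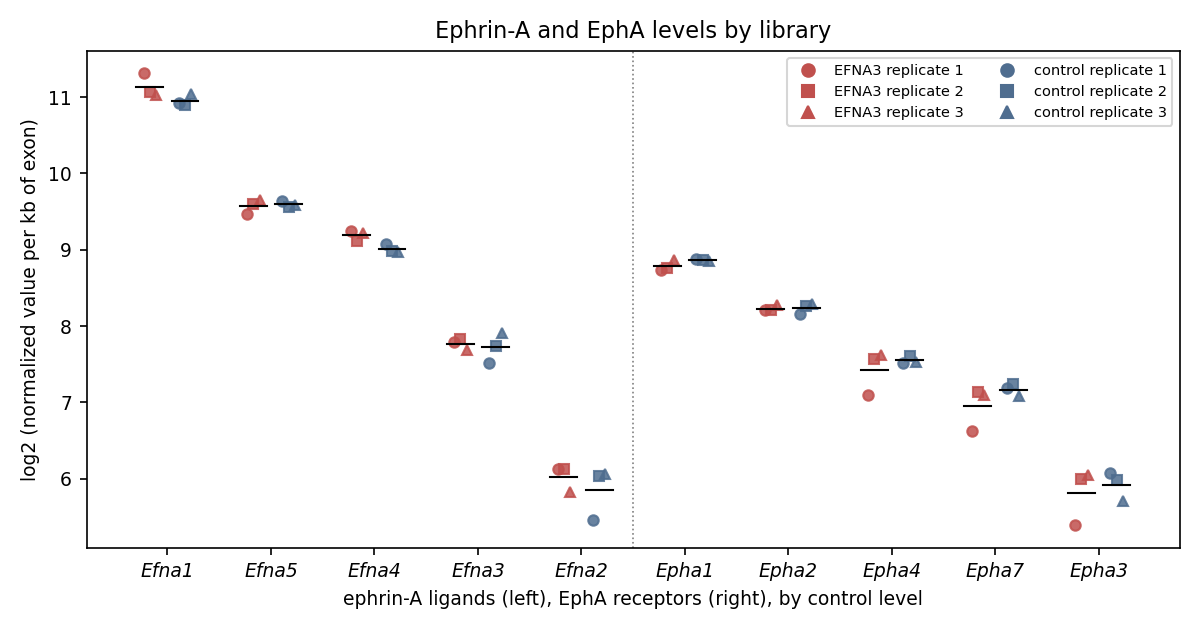
Level of each ligand and receptor by library, in log2 of the normalized value per kb of exon on the vertical axis; points are libraries, with EFNA3 in red at the left and control in blue at the right of each gene, and bars are group means. The order within ligands and within receptors is the same in each library. EFNA3 replicate 1 lies below the other libraries for Epha4, Epha7 and Epha3, and by less for Efna5 and Epha1.

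The place of the receptors below Epha1 rested on the length used. The receptor transcripts are annotated with long exon sums, 3928 nt for Epha1, 4674 nt for Epha2, 8054 nt for Epha4, 8692 nt for Epha3 and 9884 nt for Epha7, while the coding lengths lie between 2931 and 2994 nt. With coding length in place of exon length, Epha4 at 8.998 stood above Epha2 at 8.91 and Epha7 at 8.89 (log2 per kb of coding sequence, control means). With no length at all Epha2, at 10.46, stood below Epha4 at 10.56 and Epha7 at 10.47 (deposited log2). Epha1 stood first and Epha3 last of the receptors with exon length, longest transcript, coding length and no length, and the order of the ligands was likewise kept under these 4 choices. Which annotated isoforms the cells used is not known from these gene-level values.

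**Figure D2:**
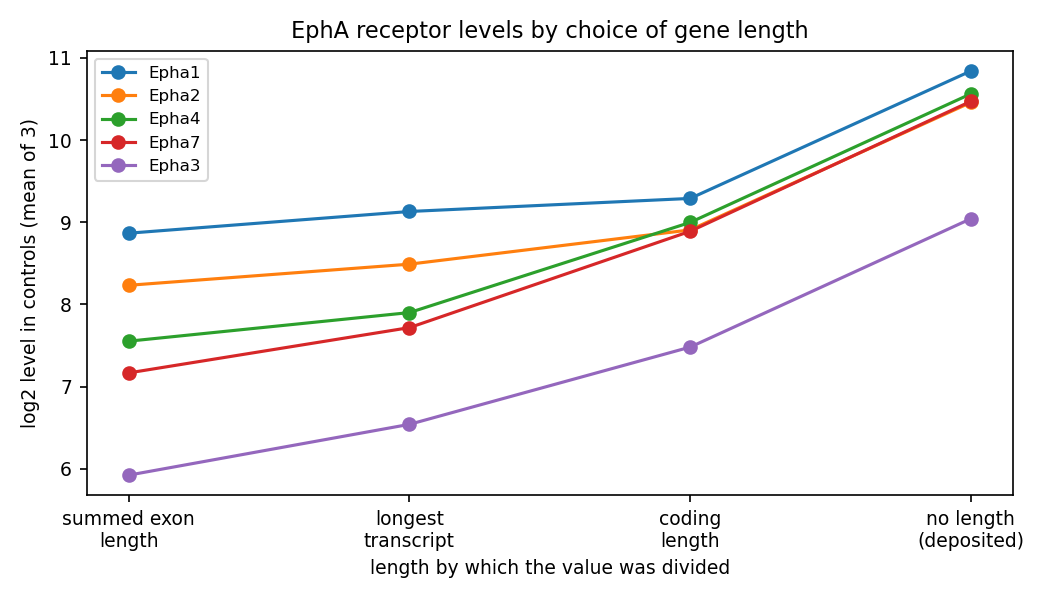
Mean control level of each EphA receptor (n = 3 libraries) on a log2 scale, by the length that the deposited value was divided by. Epha1 is highest and Epha3 lowest under each choice, while Epha2, Epha4 and Epha7 come close together with coding length and with no length.

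Summed over the 5 receptors, Epha1 made up 40.3% ± 2.2 of the EphA level in EFNA3 libraries and 40.2% ± 0.7 in controls, and Epha2 27.4% ± 1.9 in EFNA3 libraries and 25.9% ± 1.2 in controls (SD, n = 3 each, linear values per kb). The shares of Epha4, Epha7 and Epha3 were 15.8%, 11.3% and 5.17% with EFNA3 and 16.2%, 12.4% and 5.25% in controls. Without EFNA3 replicate 1 the Epha1 and Epha2 shares with EFNA3 were 39.1% and 26.3%, and those of Epha4, Epha7 and Epha3 were 16.8%, 12.1% and 5.67%. With all libraries the make-up of the EphA transcripts differed by less than 2 percentage points for each receptor, and the groups overlapped for each. The smallest p over the 5 shares was 0.2, for Epha7 (exact permutation test, two-sided, adjusted p = 1.0 over the 5), where 3 against 3 libraries cannot go below 0.1. On the ligand side Efna1 held 57.9% ± 2.9 of the summed ephrin-A level in EFNA3 libraries and 56.0% ± 1.0 in controls (SD, n = 3 each), and Efna3 held 5.61% ± 0.36 with EFNA3 and 5.98% ± 0.67 in controls. Efna5 held 19.7% ± 2.3 in EFNA3 libraries and 21.8% ± 0.9 in controls (SD, n = 3 each), the widest gap of the 10 shares, with overlap (exact permutation test, p = 0.2, adjusted p = 0.75 over 5). Without EFNA3 replicate 1 the Efna1 and Efna5 shares with EFNA3 were 56.3% and 21.0%, nearer to the controls.

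The summed ephrin-A level was 4148, 3771 and 3749 in the EFNA3 libraries, against 3512, 3445 and 3679 in the controls (linear normalized value per kb). These groups did not overlap, and each EFNA3 library lay above all controls, with replicate 1 the highest. The difference reached the smallest p that the design allows (exact permutation test, two-sided, p = 0.1; adjusted p = 0.3 over 3 quantities) and so was not past 0.05. Without EFNA3 replicate 1 the EFNA3 mean was 3760, against the control mean of 3545. The summed EphA level was 1000.4, 1121 and 1175 in EFNA3 libraries and 1151, 1184 and 1148 in controls, with overlap (exact permutation test, p = 0.3), and its EFNA3 mean without replicate 1 was 1148, against 1161 in controls. EphA transcripts amounted to 0.284 ± 0.038 of the ephrin-A sum with EFNA3 and 0.328 ± 0.016 in controls (SD, n = 3 each; exact permutation test, p = 0.2), and to 0.305 with EFNA3 when replicate 1 was left out. The size of this ratio rested on the length used: in controls it was 0.178 with coding length and 0.817 with no length.

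**Figure D3:**
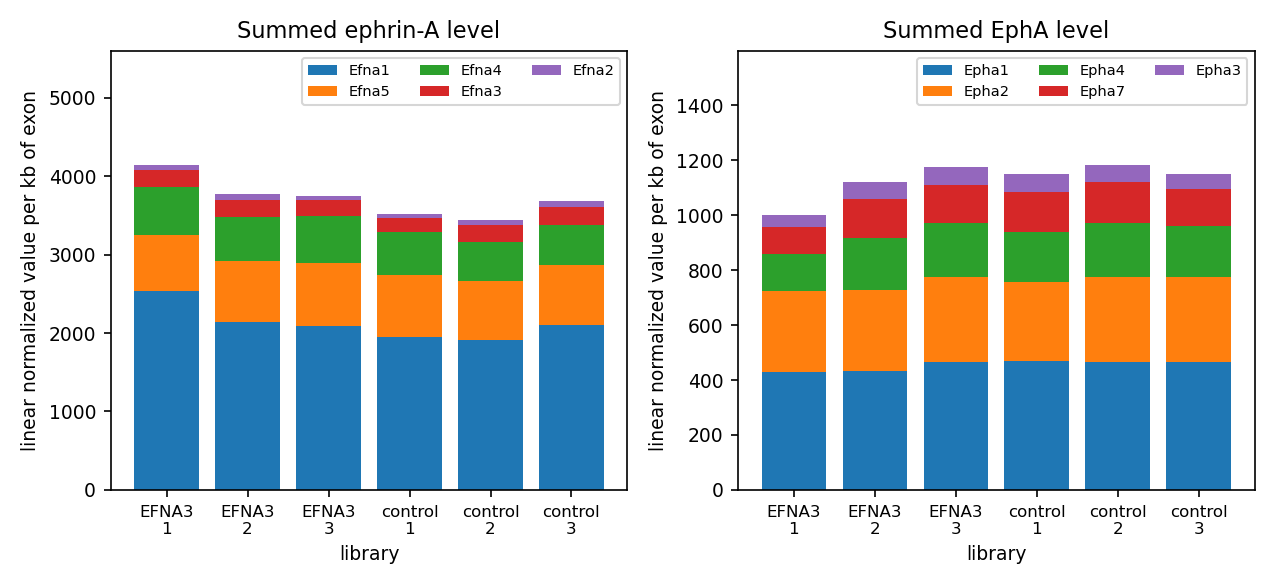
Summed linear level per kb of exon of the 5 ephrin-A ligands (left panel) and the 5 EphA receptors (right panel) in each library, stacked by gene; EFNA3 libraries are at the left of each panel and controls at the right. The ephrin-A sums of the 3 EFNA3 libraries, from 3749 to 4148, lie above those of the 3 controls, and the EphA sum is lowest in EFNA3 replicate 1, at 1000.4.

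The second question was whether 24 hours with EFNA3 protein changed these transcripts. None of the 10 genes passed limma's test after Benjamini-Hochberg adjustment, where the smallest adjusted p among them was 0.55, and 0% of the 16394 genes tested passed. At an unadjusted limma p under 0.05 stood 1 of the 10, Efna4, which was higher with EFNA3, beside 3.87% of all genes tested that were higher and 6.73% in either direction. Group means were higher with EFNA3 for 4 of the 10 and lower for 6, beside 50.8% higher among all genes tested, and the median difference of the 10 was -0.01 on the log2 scale, beside 0.00 over all genes. Of the 5 ligands 4 had a higher group mean, and all 5 receptors had a lower one; without EFNA3 replicate 1 all 5 ligands were higher, and Epha2, Epha3 and Epha4 turned positive, at 0.01, 0.10 and 0.04 on the log2 scale. In bulk RNA, fewer cells of a type and less RNA per cell cannot be told apart. Values below are deposited log2 values.

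Efna4 stood at 9.93, 9.79 and 9.90 in the EFNA3 libraries, against 9.75, 9.66 and 9.65 in the controls. Each EFNA3 library was above each control, as it was for 8.53% of all genes tested. The difference was 0.18 (SE 0.08, 95% interval 0.01 to 0.36, limma unadjusted p = 0.044, adjusted p = 0.55). It was 0.16 without EFNA3 replicate 1 and 0.10 after a length trend was taken out of each library, with unadjusted p = 0.054 and 0.197 in the limma fits, and so no longer under 0.05. Across the 16 alternatives run, the unadjusted limma p was under 0.05 in 5 and not in 11.

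Efna1, first described as a transcript induced by tumour necrosis factor in endothelial cells, stood at 12.18, 11.94 and 11.90 in the EFNA3 libraries, against 11.80, 11.77 and 11.91 in the controls. EFNA3 replicate 1 was the highest library, and EFNA3 replicate 3 lay just below control replicate 3, so the groups overlapped. The difference was 0.18 (SE 0.09, 95% interval -0.02 to 0.38, limma adjusted p = 0.55), 0.09 without EFNA3 replicate 1 and 0.11 with the length trend taken out.

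Efna3 stood at 9.07, 9.11 and 8.97 in the EFNA3 libraries, all within the control values of 8.80, 9.02 and 9.19. The difference of 0.05 had a 95% interval from -0.21 to 0.30 (limma adjusted p = 0.88). A change of the cells' own Efna3 transcript within these bounds was therefore not excluded. Efna2 stood at 7.22, 7.22 and 6.92 with EFNA3, against 6.55, 7.13 and 7.16 in controls. Its difference of 0.17 had an interval from -0.26 to 0.61 and was -0.03 without control replicate 1, the lowest library. Efna5 ran from 11.48 to 11.66 in EFNA3 libraries and from 11.57 to 11.65 in controls, a difference of -0.02 with an interval from -0.18 to 0.14.

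Efna1, Efna3 and Efna4 are neighbours on chromosome 3, on the same strand and with no other protein-coding gene between them in the GENCODE M21 annotation. Their promoter windows are shown because this cluster holds the pair with the highest differences beside Efna3, which lay close to 0. Each window runs from 250 bases before to 50 bases after an annotated start, 5′ to 3′, from RefSeq on GRCm38.p6, which is an earlier build than the mm39 of the authors' alignment. Capitals mark matches on either strand to the GC box GGGCGG and to the CCAAT box; no match overlapped another.
Efna1, chr3:89279596-89279895, minus strand: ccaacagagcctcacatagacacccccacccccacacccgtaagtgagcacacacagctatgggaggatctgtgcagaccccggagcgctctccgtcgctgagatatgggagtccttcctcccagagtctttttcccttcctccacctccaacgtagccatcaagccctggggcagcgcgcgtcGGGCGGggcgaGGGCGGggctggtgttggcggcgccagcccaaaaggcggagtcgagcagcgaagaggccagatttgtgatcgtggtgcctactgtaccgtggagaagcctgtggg
Efna3, chr3:89322890-89323189, minus strand: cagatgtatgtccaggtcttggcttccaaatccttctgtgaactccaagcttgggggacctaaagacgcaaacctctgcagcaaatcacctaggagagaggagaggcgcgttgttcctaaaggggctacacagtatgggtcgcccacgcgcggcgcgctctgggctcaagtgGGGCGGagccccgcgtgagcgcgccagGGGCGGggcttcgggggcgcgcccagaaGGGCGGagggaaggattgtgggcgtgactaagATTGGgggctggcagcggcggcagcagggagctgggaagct
Efna4, chr3:89337979-89338278, minus strand: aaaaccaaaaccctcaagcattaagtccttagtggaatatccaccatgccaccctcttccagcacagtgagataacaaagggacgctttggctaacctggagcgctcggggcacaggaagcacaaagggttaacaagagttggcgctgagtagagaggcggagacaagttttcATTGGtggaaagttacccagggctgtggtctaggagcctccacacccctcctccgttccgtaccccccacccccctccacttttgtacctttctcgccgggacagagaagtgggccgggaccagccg
The Efna1 window held 2 GC boxes and no CCAAT match, the Efna3 window 3 GC boxes and 1 CCAAT match, and the Efna4 window no GC box and 1 CCAAT match. All 10 genes had a RefSeq window at or near the start of the principal transcript; 8 held a GC box, beside 35.7% of all 32851 windows, and 4 held a CCAAT match, beside 37.4%. None of the 10 held TATAAA on either strand, beside 13.6% of windows, and Efna2 alone held the NF-kB consensus, beside 8.46%. These are matches of letters in a window and not evidence of binding. Each member was counted by 1 window, the background by every window, also where a gene has several. The shares are thus not like for like.

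Among the receptors Epha2 stood at 10.43, 10.43 and 10.50 in the EFNA3 libraries, against 10.38, 10.49 and 10.51 in the controls. The EFNA3 values lay inside the control range. Its difference was -0.01 (SE 0.07, 95% interval -0.17 to 0.16, limma adjusted p = 0.98). Epha1, the most abundant receptor per kb, stood at 10.71, 10.73 and 10.84 with EFNA3, against 10.85, 10.84 and 10.83 in controls. It was lower in EFNA3 replicates 1 and 2 than in any control, while replicate 3 fell among the controls, and the difference was -0.08 (SE 0.07, 95% interval -0.24 to 0.08, limma adjusted p = 0.63).

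Epha4, Epha7 and Epha3 have the longest exon sums of the 10 genes. In each of them EFNA3 replicate 1 was the lowest of the 6 libraries. It was also the lowest for Efna5 and Epha1, with exon sums of 4032 and 3928 nt, but not for Epha2, with 4674 nt. The cause of these low values was not tested. Epha7 stood at 9.93, 10.44 and 10.40 in the EFNA3 libraries, against 10.49, 10.54 and 10.38 in the controls. Its difference of -0.22 (SE 0.13, 95% interval -0.51 to 0.08, limma adjusted p = 0.55) was -0.05 without EFNA3 replicate 1. Epha4 stood at 10.10, 10.58 and 10.63 with EFNA3, against 10.53, 10.62 and 10.54 in controls. Replicate 2 of Epha4 lay within the control range and replicate 3 just above it, and the difference of -0.13 (SE 0.13) became 0.04 without replicate 1. Epha3 stood at 8.51, 9.12 and 9.17 with EFNA3, against 9.19, 9.11 and 8.83 in controls. Here the difference of -0.11 (SE 0.18) became 0.10 without replicate 1. With a length trend taken out of each of the 6 libraries, the differences were -0.08 for Epha7, -0.02 for Epha4 and 0.00 for Epha3. Without EFNA3 replicate 1, 8 of the 10 genes had a higher mean with EFNA3 and 2, Epha1 and Epha7, a lower one, and none was at an unadjusted limma p under 0.05. That count of members was also 0 without any single control, and 1 without EFNA3 replicate 2, where it was Efna4, and without EFNA3 replicate 3, where it was Efna1.

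**Figure D4:**
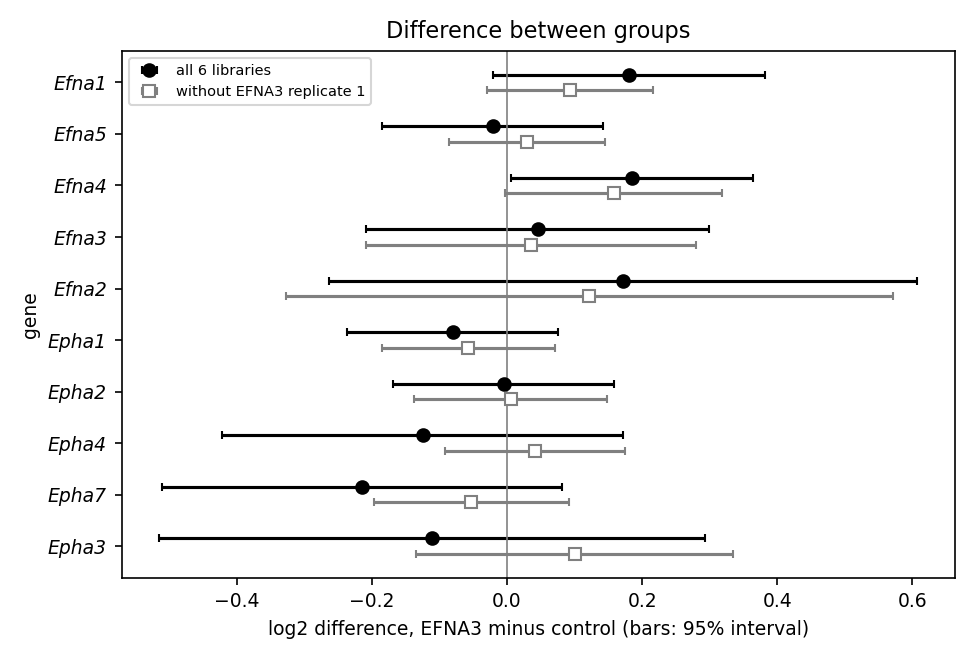
Log2 difference of each gene, EFNA3 minus control, on the horizontal axis, with 95% limma intervals; filled circles use all 6 libraries and open squares leave out EFNA3 replicate 1. Efna4 is the 1 gene whose interval over all 6 libraries lies above 0, by 0.01, and the intervals of Epha4, Epha7 and Epha3 are wide with that library and narrower without it.

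Genes that act with Eph receptors inside the cell were followed as a list of 45, of which 42 were in the table and tested: guanine exchange factors, Src and Abl family kinases and other kinases, adaptors, phosphatases, the ephrin-cleaving protease Adam10 and epithelial partners. None passed limma after adjustment and none stood at an unadjusted p under 0.05, beside 6.73% of all genes tested. Group means were higher for 16 and lower for 26, with a median of -0.04 on the log2 scale. Groups did not overlap for 5 lower genes, Ngef, Tiam1, Inppl1, Cbl and Sipa1l1, or 11.9% of the list beside 7.45% of all genes, and for 2 higher genes, Cdc42 and Fyn, or 4.76% of the list beside 8.53% of all genes. The lower genes had a median exon length of 7500 nt and the higher ones of 4367 nt. Without EFNA3 replicate 1 there were 19 higher and 23 lower, still more lower than higher. The cause of this split was not tested. The count at an unadjusted p under 0.05 was 5 without EFNA3 replicate 2, 6 without EFNA3 replicate 3 and 1 without control replicate 3, where 11.0%, 15.1% and 4.51% of all genes tested were under it, so the partners lay near the background.

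Tiam1, an exchange factor for Rac, had the smallest p of the list, with 9.80, 10.30 and 10.35 in EFNA3 libraries, against 10.43, 10.47 and 10.46 in controls. Its difference of -0.30 (SE 0.14, limma adjusted p = 0.55) was -0.13 without EFNA3 replicate 1. Cbl, a ubiquitin ligase that takes receptor tyrosine kinases down, differed by -0.36 (SE 0.17) and by -0.14 without that library. Inppl1, the lipid phosphatase SHIP2 that binds EphA2, differed by -0.16 (SE 0.08) and by -0.09 without it. Cldn4, a tight junction claudin, differed by 0.22 (SE 0.11) and by 0.12 without it. All 4 moved closer to 0 when that library was left out.

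Of the B class, 2 receptors stood above all 5 EphA receptors per kb, and 2 stood below them. Ephb6, which lacks kinase activity, stood at 10.31 ± 0.07 and Ephb4, the receptor of ephrin-B2, at 10.15 ± 0.07 log2 per kb in controls (SD, n = 3 each), both above Epha1 at 8.87. Ephb3 at 8.75 lay just below Epha1, and Ephb1 at 4.67 and Ephb2 at 3.86 lay below Epha3 at 5.92 (log2 per kb, control means). Of the 8 B-class genes 0 stood at an unadjusted limma p under 0.05, beside 6.73% of all genes tested, and 4 had higher and 4 lower group means with EFNA3, beside 50.8% higher among all genes. Ephb1 alone had groups that did not overlap, with a difference of 0.21 on the log2 scale (SE 0.11, limma adjusted p = 0.55), beside 8.53% of all genes that were higher without overlap.

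By root mean square distance between log2 values centred on the mean of the 6 libraries, the genes closest to Efna3 out of 11809 were Zbtb42 at 0.035, Atp13a2 at 0.035 and Mypop at 0.038. Those closest to Efna4, the member with the smallest p, were Snx10 at 0.028, Ctsc at 0.030 and Thyn1 at 0.031. With 6 libraries and that many candidates, this describes likeness of pattern and nothing more.

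Annotated exons of Efna3 and Efna4 overlap antisense genes over 14.1% and 10.5% of their length, and those of Epha1 overlap the opposite-strand gene Zyx over 6.0%. The library kit was stranded, but how strand was set in the counting is not given in the sources used here. Reads of these stretches may therefore have been counted for either gene or for neither.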

How the data were processed

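Per the labels' protocols, a stranded mRNA kit was used on total RNA. Trim Galore, Subread and featureCounts were the authors' tools and mm39 their build, per the submitters' processing notes; for versions, annotation and strand, the setting is not given in the sources used. The deposited table held log2 values, the base inferred from their size, made by the authors by steps not stated; the sorted columns differed by at most 0.00302, as after quantile normalization. Depth is therefore unknown and no counting interval is given. Columns were matched to samples by the description label.

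Genes with a linear value of at least 10 in at least 3 of 6 libraries were tested with limma 3.58.1 in R 4.3.3 (mean-variance trend, no block, two-sided, Benjamini-Hochberg at 0.05), with no pseudocount. The fit was run on simulated data with independent noise, no length trend and added changes larger than any difference of the members. That run does not speak to changes of the size seen here. Levels per kb used summed exon lengths from GENCODE M21 by symbol, found for 97.4% of tested genes. Single quantities were compared by exact permutation in scipy 1.17.1. The members, the partner list, the marker lists (luminal, basal, fibroblast, endothelial, immune, neural, adipocyte) and the tests were chosen with earlier results of these data known. Named partners were the 4 with the smallest p, since none was under 0.05. The 3 immune markers were not analysed here. Alternatives varied the filter, pseudocount, scaling, variance model, library weights, replicate block, libraries, gene length and a length spline with 5 degrees of freedom.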

Additional observations from a re-analysis of the deposited data

How the results depend on the processing

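No member passed limma's adjusted threshold under any of the 16 alternatives run, and the directions of Efna1, Efna4, Epha1 and Epha7 were kept in all 16. Over all genes, the count past the adjusted threshold was 0 except with description numbers as the replicate block. There it was 71, none of them a member. Under that block replicate 2 of either group had no partner with its number, so the difference came from replicates 1 and 3 only. The count of 71 thus does not come from a comparison of all libraries, and its cause was not tested. Efna4 was the single member under 0.05 before adjustment. The number of such members was 0 without a mean-variance trend, 0 with library weights, 0 with either replicate block and 0 with the length correction, with or without EFNA3 replicate 1. Leaving out single libraries, it ran from 0 to 1: Efna4 without EFNA3 replicate 2, Efna1 without EFNA3 replicate 3, and 0 without any control or without EFNA3 replicate 1. Libraries with the same title number had deviations from their group means that correlated at -0.11, 0.03 and -0.32 across genes. Not every library correlated best with its own number. By the descriptions, only replicates 1 and 3 share a number between the groups. Such deviations, centred within groups of 3 libraries, cannot show whether the samples were paired.

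The partner count at an unadjusted p under 0.05 was 0, but 1 with no filter (which adds no gene to the list), 2 with library weights, 3 with the replicate block by the titles and 1 by the descriptions; leaving out single libraries it ran from 0 to 6. The B-class count was 0, but 1 without the trend, 1 with library weights, 2 with the length correction and 1 with that correction and no EFNA3 replicate 1.

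Small differences changed sign (log2). Efna3 was -0.0051 with the length correction. With library weights Efna5 was 0.0113, and with the length correction and no EFNA3 replicate 1 it was 0.0323. Epha2 was 0.0206 with the block by the descriptions, 0.0114 with the length correction and 0.0134 with that and no EFNA3 replicate 1. Epha3 was 0.0455 with library weights, 0.0017 with the length correction and 0.139 with that and no EFNA3 replicate 1. With library weights Epha4 was 0.0060, and with the length correction it was 0.0768 with no EFNA3 replicate 1. Leaving out single libraries, differences ran from -0.0261 to 0.278 for Efna2, -0.0546 to 0.137 for Efna3, -0.0587 to 0.0299 for Efna5, -0.0457 to 0.0205 for Epha2, -0.228 to 0.1002 for Epha3, -0.222 to 0.0417 for Epha4.

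Gene length moved the levels most. The number of genes at the same rank was 6 of 10 with the longest transcript, 4 with coding length and 3 with no length, and 8 to 10 leaving out single libraries. The control share of Epha1 in the EphA sum, 40.2%, was 38.3% with the longest transcript, 27.6% with coding length and 27.4% with no length. The ratio of EphA to ephrin-A sums, 0.328, was 0.386, 0.178 and 0.817 under these. The unknown depth limits how firmly the low genes Efna2 and Epha3 can be placed.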
